A study of Homo sapiens with 12 samples.

Results

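The genes described here are 10 that encode mucins and proteins of mucous or gut-type secretory cells: MUC5AC, MUC5B, MUC13, MUC16, MUC1, FCGBP, CEACAM5, CEACAM6, AGR2 and TFF1. They were found by matching Ensembl ids to these symbols, which gave 10 of the 60676 gene rows of the count table, and all 10 were among the 16192 genes that passed a filter on low counts. The members had been chosen on results of these same libraries, in which MUC16, MUC5AC and other members were already known to be lower with LETS1. Their LETS1 values are therefore a description, and no p value is given for them. MUC16 passed the filter only through the Co.vec libraries, where its counts were high enough.

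RNA was sequenced from A549, an established human lung adenocarcinoma line, in 12 libraries that form 4 groups of 3. The groups were LETS1 cells given TGF-β, LETS1 cells given ligand buffer, empty-vector cells (Co.vec) given TGF-β, and Co.vec cells given ligand buffer. LETS1 is a long non-coding RNA, delivered here by lentivirus, and Co.vec is pCDH-EF1a-PURO without an insert. Every group was transduced and kept in 1 ng/mL puromycin, and TGF-β (5 ng/mL) or its buffer was present for 4 h. The table of gene names held 0 genes called LETS1, so how strongly it was expressed is not known here. Replicates are labelled biological, with no word on separate transductions, and p values measure only the spread between these libraries.

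Mucins are large, heavily O-glycosylated proteins. Gel-forming mucins such as MUC5AC and MUC5B are secreted, join end to end through disulfide bonds and give mucus its viscosity, and in the airway they come from goblet cells, other secretory cells and submucosal glands. Transmembrane mucins such as MUC1, MUC13 and MUC16 stay on the apical cell surface, where they form part of the glycocalyx. AGR2 is a disulfide isomerase of the endoplasmic reticulum that mucin production needs in mouse intestine, FCGBP is a secreted component of mucus, TFF1 is a trefoil peptide made with MUC5AC in the stomach, and CEACAM5 and CEACAM6 are surface glycoproteins of the carcinoembryonic antigen family held by a lipid anchor.

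CEACAM5 and CEACAM6 are neighbouring genes of the same family and moved in opposite directions with LETS1, so the 250 bases before their RefSeq starts are shown, with those of MUC13, whose promoter held the other matches to the E-box, CRE and AP-1 motifs. RefSeq (GRCh38.p14) had a promoter for 7 of the 10 genes: MUC13, MUC16, MUC1, FCGBP, CEACAM5, CEACAM6 and AGR2. These RefSeq starts are not always the starts of the GENCODE gene bodies given below. The windows of MUC13, CEACAM6 and AGR2 lie inside those bodies, and that of MUC16 lies outside, away from its start. Which start these cells use was not tested. Each is printed 5′ to 3′ on the strand of the gene, and capitals mark matches to CACGTG (E-box, in CEACAM5 and CEACAM6), TGACGTCA (cAMP response element, CRE, in MUC13) or TGANTCA (AP-1, in MUC13).
CEACAM5, chr19:41708376-41708625, plus strand: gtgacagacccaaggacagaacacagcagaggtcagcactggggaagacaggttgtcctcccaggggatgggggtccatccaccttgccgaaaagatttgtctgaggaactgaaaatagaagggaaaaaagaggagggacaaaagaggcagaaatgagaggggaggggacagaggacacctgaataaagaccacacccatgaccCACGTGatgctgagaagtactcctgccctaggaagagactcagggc
CEACAM6, chr19:41755280-41755529, plus strand: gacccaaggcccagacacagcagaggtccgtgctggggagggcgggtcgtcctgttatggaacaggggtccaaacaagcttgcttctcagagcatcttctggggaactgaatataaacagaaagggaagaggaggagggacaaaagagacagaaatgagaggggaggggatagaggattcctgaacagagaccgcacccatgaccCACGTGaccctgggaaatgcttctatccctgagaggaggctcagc
MUC13, chr3:124934752-124935001, minus strand: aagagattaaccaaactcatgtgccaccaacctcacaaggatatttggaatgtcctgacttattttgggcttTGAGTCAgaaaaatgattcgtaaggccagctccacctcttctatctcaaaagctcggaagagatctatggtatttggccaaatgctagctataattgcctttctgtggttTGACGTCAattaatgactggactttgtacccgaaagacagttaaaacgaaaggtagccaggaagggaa

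The CEACAM5 and CEACAM6 promoters were identical at 194 of 260 aligned positions (74.6%). For unrelated pairs the same alignment gave 49.2% for CEACAM5 with AGR2 and 48.2% for CEACAM6 with MUC13. Both carried the E-box motif at almost the same place, from base -46 to -41 before the start of CEACAM5 and from -45 to -40 before that of CEACAM6. This motif was found on either strand in 6.49% of 27305 promoter windows of the same length. In MUC13 the CRE motif lay at -68 to -61 and the AP-1 motif at -178 to -172. These were present in 1.77% and 6.60% of all windows. The short SMAD-type motif CAGAC occurred in the windows of MUC16, FCGBP, CEACAM5 and CEACAM6, and in 37.8% of all windows, while TATAAA was found in those of MUC1 and CEACAM6 and in 11.1% of all. The forkhead motif TGTTTAC occurred in none of the 7 and in 2.98% of all windows. No 2 of these matches overlapped. A match says only that these letters are present.

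The libraries held 19705135 to 20351043 fragments counted in genes, and replicates of a group differed by 2.16 to 5.24 times the variance of counting alone (chi-square per degree of freedom, 12 pairs). Keratin genes KRT8, KRT18 and KRT19 and the epithelial genes EPCAM and CDH1 were all expressed, summing to 7381 to 7727 CPM in LETS1 cells with TGF-β, 5997 to 6323 in LETS1 cells in buffer, 8731 to 9751 in Co.vec cells with TGF-β and 7949 to 8605 in Co.vec cells in buffer. The 3 keratins of these 5 epithelial markers were lower with LETS1 in both media. EPCAM and CDH1 were not called in either medium, with log2 fold changes of 0.19 and 0.03 in buffer and -0.09 and 0.06 with TGF-β. How far the keratin differences enter the values below was not tested. None of the 6 alveolar genes examined (NKX2-1 and 5 surfactant genes) passed the filter, and their summed level was at most 0.974 CPM in any library. Of 17 markers of fibroblast, blood, endothelial, ciliated and basal cells, 5 passed the filter. Their 17-gene sum was 148.8 to 166.0 CPM in LETS1 cells with TGF-β, 29.3 to 35.0 in LETS1 cells in buffer, 142.0 to 149.0 in Co.vec cells with TGF-β and 30.9 to 33.9 in Co.vec cells in buffer. With TGF-β most of that was COL1A1, at 141.9 ± 8.40 CPM in LETS1 and 125.6 ± 4.20 CPM in Co.vec cells, against 19.9 ± 2.1 and 13.3 ± 0.070 CPM in the same cells in buffer, while CD3E, CD68, PTPRC, COL1A2, DCN and KRT5 had at most 6 counts in any library. Among these markers, the airway markers TPPP3 and TP63 were lower and COL1A1 and LUM higher with LETS1 in both media. FOXJ1, a marker of ciliated cells and the other one that passed the filter, was not called in either medium. Its log2 fold change was 0.25 in buffer (edgeR adjusted p = 0.686) and -0.25 with TGF-β (edgeR adjusted p = 0.752). The part of these marker differences in the values below was not tested. In bulk RNA, fewer cells of a kind and less RNA per cell cannot be told apart.

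Per kilobase of exonic sequence, which is the scale for comparing genes, AGR2 stood highest of the 10 and MUC16 lowest in every group. AGR2 averaged 129 ± 5.69 CPM per kb in LETS1 cells with TGF-β, 158 ± 11.8 in LETS1 cells in buffer, 221 ± 11.9 in Co.vec cells with TGF-β and 280.6 ± 8.66 in Co.vec cells in buffer (SD, n = 3). CEACAM6, MUC5B, MUC13 and MUC5AC followed in that order in all 4 groups, at 56.2, 11.2, 9.66 and 4.68 CPM per kb in LETS1 cells with TGF-β and at 161.6, 33.6, 27.7 and 23.8 in Co.vec cells in buffer. TFF1, FCGBP, MUC1 and CEACAM5 took the lower places, all at 8.18 CPM per kb or less in every group. MUC16 averaged 0.00425 CPM per kb in LETS1 cells with TGF-β and 0.0268 in Co.vec cells in buffer. Neighbours in this order lay further apart than their SDs except MUC5B and MUC13 in Co.vec cells with TGF-β (25.7 ± 2.08 and 22.9 ± 1.53 CPM per kb), FCGBP and TFF1 in the same cells and in LETS1 cells in buffer, and MUC1 and FCGBP in LETS1 cells with TGF-β. All other levels below are in CPM, counts scaled to library size with TMM.

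**Figure D1:**
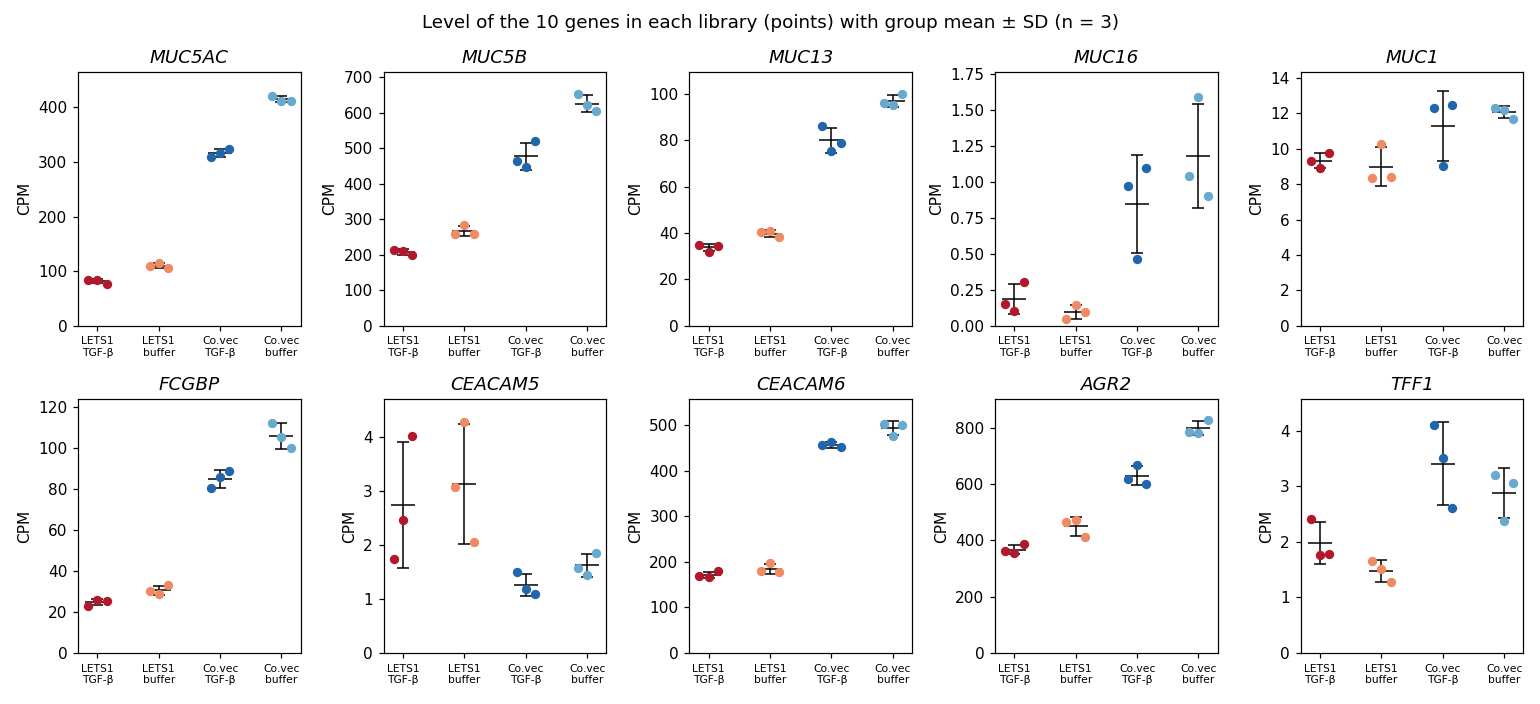
Level in CPM of each of the 10 genes (linear axis from 0, own scale per gene) in the 12 libraries, shown as points, with the group mean as a bar and ± 1 SD (n = 3). LETS1 libraries sit below Co.vec libraries of the same medium for 8 genes, overlap or nearly meet them for MUC1, and sit above them for CEACAM5.

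The first comparison asks how these genes differ when LETS1 is expressed, without and with ligand. In buffer 9 members were lower and 1, CEACAM5, was higher with LETS1, by a median log2 fold change of -1.26 over the 10 genes against 0.01 over all tested genes. Of all tested genes 6.56% were called lower and 8.57% higher at an adjusted p under 0.05. With TGF-β 8 members were lower, CEACAM5 was again higher and MUC1 did not pass, with a median of -1.22 for the members against a value near 0 for all genes, of which 6.5% were called lower and 7.58% higher. Because the members were chosen on this contrast, and MUC16 passed the filter only through the Co.vec libraries, nothing is read from these counts. The summed level of the 10 genes was 886.6 to 916.3 CPM in LETS1 cells with TGF-β and 2032 to 2081 CPM in Co.vec cells with TGF-β. In buffer it was 1037 to 1151 CPM in LETS1 cells and 2510.0 to 2589 CPM in Co.vec cells. These sums too are a description only, since the members were chosen on this contrast.

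The gel-forming mucins lie side by side on chromosome 11 (GRCh38), MUC5AC (ENSG00000215182) at 1157953 to 1201138 and MUC5B (ENSG00000117983) at 1223066 to 1262172, both on the plus strand. MUC5AC had 84.4, 83.3 and 77.2 CPM in LETS1 cells with TGF-β and 109.2, 114.7 and 105.9 CPM in LETS1 cells in buffer, against 308.5, 315.9 and 323.0 CPM in Co.vec cells with TGF-β and 421.6, 412.0 and 411.5 CPM in Co.vec cells in buffer. The 4 groups did not overlap at any point. With LETS1 the log2 fold change of MUC5AC was -1.95 (SE 0.046) with TGF-β and -1.92 (SE 0.045) in buffer, which left 0.265 of the Co.vec level in buffer.

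MUC5B had 214.6, 211.1 and 198.5 CPM in LETS1 cells with TGF-β and 257.7, 282.3 and 258.9 CPM in LETS1 cells in buffer, against 464.2, 446.7 and 520.7 CPM in Co.vec cells with TGF-β and 651.6, 621.9 and 603.2 CPM in Co.vec cells in buffer. Its groups too were fully separate, but closer together than those of MUC5AC. The log2 fold change with LETS1 was -1.20 (SE 0.050) with TGF-β and -1.23 (SE 0.050) in buffer. As a result the balance of the gel-forming mucins differed between the vectors: for each MUC5B count there were 0.392 ± 0.003 MUC5AC counts in LETS1 cells with TGF-β and 0.413 ± 0.009 in LETS1 cells in buffer, against 0.664 ± 0.043 in Co.vec cells with TGF-β and 0.664 ± 0.018 in Co.vec cells in buffer (SD, n = 3). An antisense gene, MUC5B-AS1, shares 2.33% of the exonic bases of MUC5B. It had 0 counts in every library, but such counts leave out fragments given to several genes.

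**Figure D2:**
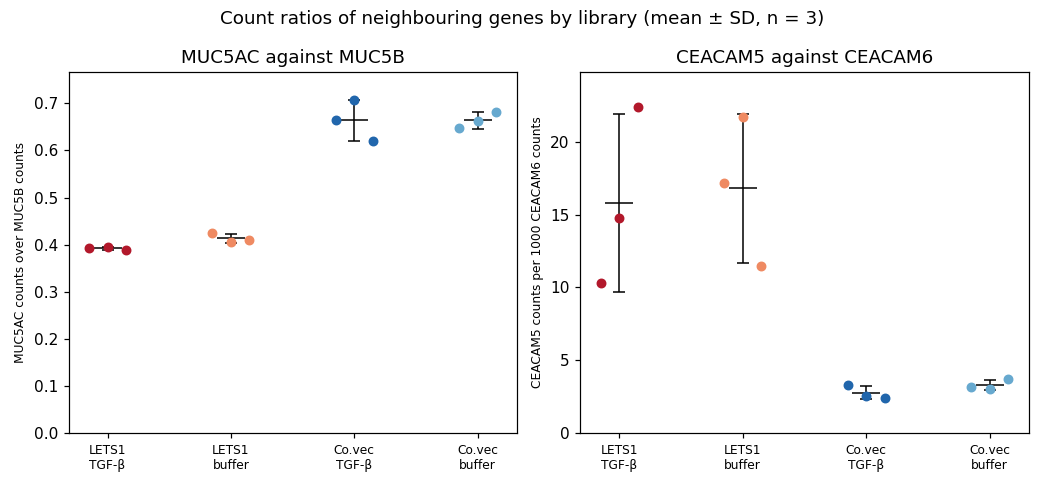
Left, MUC5AC counts over MUC5B counts; right, CEACAM5 counts per 1000 CEACAM6 counts. Points are libraries and bars are group means ± 1 SD (n = 3). LETS1 libraries lie near 0.4 in the left plot, below the Co.vec libraries near 0.66, and at 10.3 to 22.4 in the right plot, above the Co.vec libraries at 2.44 to 3.70.

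Of the transmembrane mucins, MUC13 (ENSG00000173702, chromosome 3, 124905442 to 124953819, minus strand), a mucin of gut epithelium, was the most abundant. It had 35.0, 32.0 and 34.5 CPM in LETS1 cells with TGF-β and 40.2, 40.8 and 38.2 CPM in LETS1 cells in buffer, against 85.9, 75.4 and 78.6 CPM in Co.vec cells with TGF-β and 96.1, 94.9 and 99.8 CPM in Co.vec cells in buffer. No LETS1 library reached any Co.vec library. The log2 fold change was -1.24 (SE 0.057) with TGF-β and -1.29 (SE 0.055) in buffer.

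MUC16 (ENSG00000181143, chromosome 19, 8848844 to 8981342, minus strand), which carries the CA125 antigen, was scarce throughout. Its raw counts were 3, 2 and 6 in LETS1 cells with TGF-β and 1, 3 and 2 in LETS1 cells in buffer, against 19, 9 and 22 in Co.vec cells with TGF-β and 21, 32 and 18 in Co.vec cells in buffer. Every LETS1 library was below every Co.vec library, at a depth of few counts. Summed over 3 libraries this was 11 counts (95% Poisson interval 5.49 to 19.7) in LETS1 cells with TGF-β and 6 (2.20 to 13.1) in LETS1 cells in buffer, against 50 (37.1 to 65.9) and 71 (55.5 to 89.6) in Co.vec cells with TGF-β and in buffer. These intervals cover counting error only. The fitted log2 fold changes with LETS1, -2.15 (SE 0.463) with TGF-β and -3.51 (SE 0.488) in buffer, were the least precise of the 10 genes. Leaving out 1 library at a time gave -2.69 to -1.86 with TGF-β and -3.90 to -3.20 in buffer.

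MUC1 (ENSG00000185499, chromosome 1, 155185824 to 155192916, minus strand), the transmembrane mucin found on most simple epithelia, differed least. Its level was 9.33, 8.93 and 9.76 CPM in LETS1 cells with TGF-β and 8.35, 10.3 and 8.40 CPM in LETS1 cells in buffer, against 12.3, 9.02 and 12.5 CPM in Co.vec cells with TGF-β and 12.3, 12.2 and 11.7 CPM in Co.vec cells in buffer. The buffer groups did not overlap, while with TGF-β the second Co.vec library fell inside the LETS1 range. The log2 fold change was -0.27 (SE 0.107) with TGF-β and -0.42 (SE 0.105) in buffer. Without that library the value with TGF-β was -0.41.

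AGR2 (ENSG00000106541, chromosome 7, 16791811 to 16833433, minus strand) had the highest CPM of the 10. It had 361.0, 354.8 and 385.4 CPM in LETS1 cells with TGF-β and 466.2, 471.2 and 410.9 CPM in LETS1 cells in buffer, against 618.6, 666.5 and 601.3 CPM in Co.vec cells with TGF-β and 785.5, 782.7 and 826.7 CPM in Co.vec cells in buffer. All 4 groups were separate. With LETS1 the log2 fold change was -0.78 (SE 0.049) with TGF-β and -0.83 (SE 0.048) in buffer, smaller than for the gel-forming mucins.

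FCGBP (ENSG00000275395, chromosome 19, 39863323 to 39934626, minus strand) had 23.1, 25.9 and 25.4 CPM in LETS1 cells with TGF-β and 30.4, 28.8 and 33.1 CPM in LETS1 cells in buffer, against 80.4, 85.8 and 88.8 CPM in Co.vec cells with TGF-β and 112.5, 105.5 and 100.1 CPM in Co.vec cells in buffer. Here again the 4 groups did not overlap. The log2 fold change of -1.78 (SE 0.062) with TGF-β and -1.79 (SE 0.059) in buffer was close in size to that of MUC5AC.

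TFF1 (ENSG00000160182, chromosome 21, 42362282 to 42366594, minus strand) was low, at 2.41, 1.76 and 1.78 CPM in LETS1 cells with TGF-β and 1.66, 1.52 and 1.27 CPM in LETS1 cells in buffer, against 4.11, 3.50 and 2.61 CPM in Co.vec cells with TGF-β and 3.21, 2.38 and 3.06 CPM in Co.vec cells in buffer. Within a medium the vectors did not overlap. The log2 fold change with LETS1 was -0.78 (SE 0.190) with TGF-β and -0.96 (SE 0.205) in buffer.

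CEACAM6 (ENSG00000086548, chromosome 19, 41750977 to 41772208, plus strand) and CEACAM5 (ENSG00000105388, chromosome 19, 41708585 to 41729798, plus strand) moved apart. CEACAM6 had 168.7, 166.3 and 179.5 CPM in LETS1 cells with TGF-β and 179.3, 196.6 and 178.1 CPM in LETS1 cells in buffer, against 455.8, 463.6 and 451.7 CPM in Co.vec cells with TGF-β and 503.4, 475.5 and 501.0 CPM in Co.vec cells in buffer. The vectors were well separated, with log2 fold changes of -1.41 (SE 0.045) with TGF-β and -1.42 (SE 0.045) in buffer.

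CEACAM5, whose product is the carcinoembryonic antigen used as a tumour marker, was the 1 member that was higher. Its level was 1.74, 2.46 and 4.02 CPM in LETS1 cells with TGF-β and 3.08, 4.27 and 2.05 CPM in LETS1 cells in buffer, against 1.49, 1.19 and 1.10 CPM in Co.vec cells with TGF-β and 1.58, 1.44 and 1.85 CPM in Co.vec cells in buffer. All LETS1 libraries were above the Co.vec libraries of their medium, but they were widely spread. The log2 fold change was 1.12 (SE 0.296) with TGF-β and 0.94 (SE 0.270) in buffer. It was 0.65, 0.93 and 0.86 in buffer, and no longer past the threshold, without LETS1 buffer library 2 or Co.vec buffer library 1 or 2. With TGF-β it was 0.74 without LETS1 library 3 and 1.07 without Co.vec library 2, again not past the threshold.

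For every 1000 CEACAM6 counts there were 15.8 ± 6.09 CEACAM5 counts in LETS1 cells with TGF-β and 16.8 ± 5.11 in LETS1 cells in buffer, against 2.76 ± 0.447 in Co.vec cells with TGF-β and 3.29 ± 0.361 in Co.vec cells in buffer (SD, n = 3). CEACAM5 thus remained a small fraction of CEACAM6 in all 12 libraries. The pair are close paralogs, and GENCODE 29 places a read-through gene, AC243967.1, over 16.2% of the exonic bases of CEACAM5 and 5.64% of those of CEACAM6. Fragments that overlapped several genes, or that aligned to several places (1.99% to 2.29% of fragments), were left out of the gene counts. How this divides between the pair was not tested. AC243967.1 itself had 0 counts in every library, but such counts leave out fragments shared with another gene. Of the other protein-coding genes within 250 kb, members left out, 0 of 5 tested around CEACAM5 and 0 of 6 around CEACAM6 were called in either LETS1 comparison. Over all tested genes 8.57% were called higher and 6.56% lower in buffer, and 7.58% higher and 6.5% lower with TGF-β. The sets share genes and are small, so nothing is read from these counts.

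**Figure D3:**
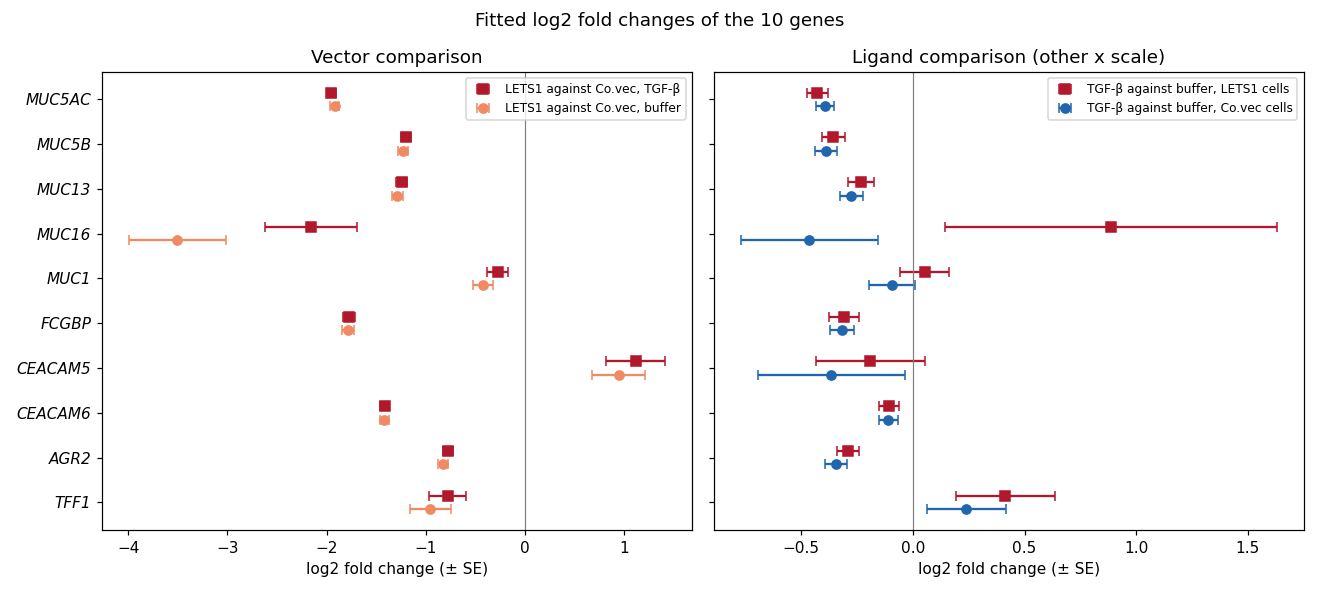
Fitted log2 fold changes (x axis, ± 1 SE) of the 10 genes, left for LETS1 over Co.vec with TGF-β and in buffer, right for the ligand effect in LETS1 and in Co.vec cells, on a narrower scale. In the left plot 9 genes lie below 0 and CEACAM5 above it; in the right plot MUC5AC, MUC5B, MUC13, FCGBP and AGR2 lie below 0 in both cell types.

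The ligand comparison asks what 4 h of TGF-β did to these genes. In LETS1 cells 5 members fell and 0 rose, with a median log2 fold change of -0.21 against -0.02 over all genes, of which 19.1% were called lower and 19.7% higher. In Co.vec cells 6 members fell and 0 rose, with a median of -0.33 against -0.02, where 18.6% of all genes were called lower and 21.1% higher. These comparisons share libraries with the LETS1 comparisons through which members became known, so the values of each are given side by side and not as separate support. For MUC5AC, MUC5B, MUC13, FCGBP, CEACAM6 and AGR2 the ligand changes were smaller than those between vectors. The members were chosen on the vector contrast, so nothing is read from this order.

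MUC5AC fell with TGF-β by 0.43 on the log2 scale in LETS1 cells (SE 0.047, adjusted p = 7.06e-10) and by 0.39 in Co.vec cells (SE 0.042, edgeR adjusted p = 4.7e-10). MUC5B fell by 0.36 in LETS1 cells (adjusted p = 3e-07, edgeR) and by 0.39 in Co.vec cells (adjusted p = 2.19e-08). The libraries of the 2 media did not overlap for either gene in either cell type, and both gel-forming mucins fell by amounts within their errors of each other in Co.vec cells.

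AGR2 fell by 0.29 in LETS1 cells (adjusted p = 5.74e-06, edgeR) and by 0.34 in Co.vec cells (adjusted p = 2.08e-07). FCGBP fell by 0.31 in LETS1 cells (adjusted p = 0.000323, edgeR) and by 0.32 in Co.vec cells (adjusted p = 6.36e-06). MUC13 fell by 0.23 in LETS1 cells (adjusted p = 0.00183, edgeR) and by 0.28 in Co.vec cells (adjusted p = 2.92e-05). For these 3 genes as well every TGF-β library was below every buffer library of the same vector.

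CEACAM6 was at the threshold. In LETS1 cells its log2 fold change was -0.11 and did not pass (edgeR adjusted p = 0.0609), though it passed without LETS1 buffer library 3 (0.0431) or LETS1 TGF-β library 3 (0.0284). In Co.vec cells it was also -0.11 and passed (SE 0.043, edgeR adjusted p = 0.0402). That call was lost without a filter (adjusted p = 0.132), with a replicate block (0.0613), in a fit of the 6 libraries alone (0.0685) and on leaving out any of 8 single libraries: LETS1 TGF-β 1 or 2, LETS1 buffer 2, Co.vec TGF-β 1, 2 or 3 and Co.vec buffer 1 or 3 (0.0515 to 0.143).

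The other members did not pass in either cell type. MUC1 had log2 fold changes of 0.05 in LETS1 cells (adjusted p = 0.747, edgeR) and -0.09 in Co.vec cells (adjusted p = 0.493). CEACAM5 had -0.19 in LETS1 cells (adjusted p = 0.578, edgeR) and -0.37 in Co.vec cells (adjusted p = 0.411). TFF1 had 0.41 in LETS1 cells (adjusted p = 0.143, edgeR) and 0.24 in Co.vec cells (adjusted p = 0.297, edgeR). In LETS1 cells, though, its 3 TGF-β libraries, at 1.76 to 2.41 CPM, lay above its 3 buffer libraries, at 1.27 to 1.66 CPM. MUC16 had 0.89 in LETS1 cells (SE 0.744, adjusted p = 0.371, edgeR) and -0.47 in Co.vec cells (SE 0.308, adjusted p = 0.241). At most 6 counts in a LETS1 library set its precision.

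Whether the ligand response differed between the vectors was tested as an interaction, the response in LETS1 cells minus that in Co.vec cells. Of the 10 members 0 passed with edgeR, 0 with DESeq2 and 0 had an unadjusted p under 0.05, where 0.0803% of all tested genes were called higher and 0.599% lower. The interaction was -0.04 for MUC5AC (SE 0.063), 0.03 for MUC5B (SE 0.070) and 0.05 for AGR2 (SE 0.068). It was least precise for MUC16, at 1.35 (SE 0.809, adjusted p = 0.774, edgeR), followed by CEACAM5, at 0.17 (SE 0.408), and TFF1, at 0.18 (SE 0.283).

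Related genes were taken from 5 lists of 120 non-members, of which 64 passed the filter. The lists were written with earlier results of these data known, so their counts are a description. In the list of mucous and airway secretory genes, 16 of 41 passed it, and with LETS1 in buffer 10 were lower and 0 higher (median log2 fold change -0.72). Over all tested genes 6.56% were called lower and 8.57% higher. With TGF-β 9 were lower and 0 higher with LETS1 (median -0.57), where 6.5% of all tested genes were called lower and 7.58% higher. BPIFB1, a secreted protein of airway lining fluid, had 0.929 ± 0.047 CPM in LETS1 cells in buffer and 3.69 ± 0.356 CPM in Co.vec cells in buffer (log2 fold change -1.98, SE 0.199, edgeR adjusted p = 3.59e-10). BCAS1 had a log2 fold change of -1.62 (edgeR adjusted p = 1.22e-10), and LCN2, an iron-siderophore binding protein, of -1.38 (edgeR adjusted p = 1.31e-05). With TGF-β, BCAS1 (-1.70), BPIFB1 (-1.66) and ZG16B, a secreted lectin-like protein (-1.44, adjusted p = 3.93e-06, edgeR), led the list. BCAS1, at 2.01 ± 0.174 CPM in LETS1 cells and 6.20 ± 1.14 CPM in Co.vec cells in buffer, was the most abundant of these 4, far below the abundant members.

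The largest ligand effects in the secretory list were in transcription factors. FOXA3 averaged 1.88 ± 0.386 CPM in LETS1 cells with TGF-β and 4.65 ± 0.606 CPM in LETS1 cells in buffer (log2 fold change -1.30, edgeR adjusted p = 3.2e-08). In Co.vec cells it averaged 2.60 ± 0.283 CPM with TGF-β and 9.49 ± 0.975 CPM in buffer (-1.86, edgeR adjusted p = 2.06e-14). FOXA3 promotes goblet cell differentiation in mouse airway, whereas FOXA2 restrains it there. FOXA2 had 23.7 ± 2.13 CPM with TGF-β and 45.6 ± 3.36 CPM in buffer in LETS1 cells (0.520 times the buffer level, edgeR adjusted p = 5.66e-14), and 24.3 ± 2.48 CPM with TGF-β and 48.7 ± 1.93 CPM in buffer in Co.vec cells (0.499 times, edgeR adjusted p = 7.44e-15). CREB3L1, a membrane-bound transcription factor of secretory cells, fell in Co.vec cells (-1.32, edgeR adjusted p = 0.000598). It was scarce in these cells, at 0.595 ± 0.261 CPM with TGF-β and 1.49 ± 0.359 CPM in buffer. In all, 4 of the 16 secretory genes fell and 0 rose with TGF-β in LETS1 cells, where 19.1% of all tested genes were called lower and 19.7% higher. In Co.vec cells 6 fell and 0 rose, where 18.6% of all tested genes were called lower and 21.1% higher.

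SPDEF is a transcription factor that drives goblet cell differentiation in mouse airway and gut. It was the 1 listed gene of 64 with an interaction past the threshold. Over all tested genes 0.0803% were called higher and 0.599% lower in this test. Of the 64, 8 had an unadjusted p under 0.05 (edgeR). The share of all tested genes at that level was not computed, so nothing is read from the 8. SPDEF averaged 20.1 ± 0.808 CPM in LETS1 cells with TGF-β and 25.2 ± 1.83 CPM in LETS1 cells in buffer (SD, n = 3). In Co.vec cells it averaged 32.2 ± 1.30 CPM with TGF-β and 54.8 ± 2.88 CPM in buffer. The fall with TGF-β was -0.33 in LETS1 cells (SE 0.070, edgeR adjusted p = 0.00023) and -0.77 in Co.vec cells (SE 0.061, edgeR adjusted p = 1.35e-13). The interaction was 0.44 (SE 0.093, edgeR adjusted p = 0.00787), and it was 0.41 and did not pass (adjusted p = 0.0548, edgeR) without LETS1 TGF-β library 2. SPDEF was also lower with LETS1, with a value of -0.68 with TGF-β (SE 0.068, edgeR adjusted p = 5.28e-10) and -1.12 in buffer (SE 0.062, edgeR adjusted p = 1.99e-17).

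**Figure D4:**
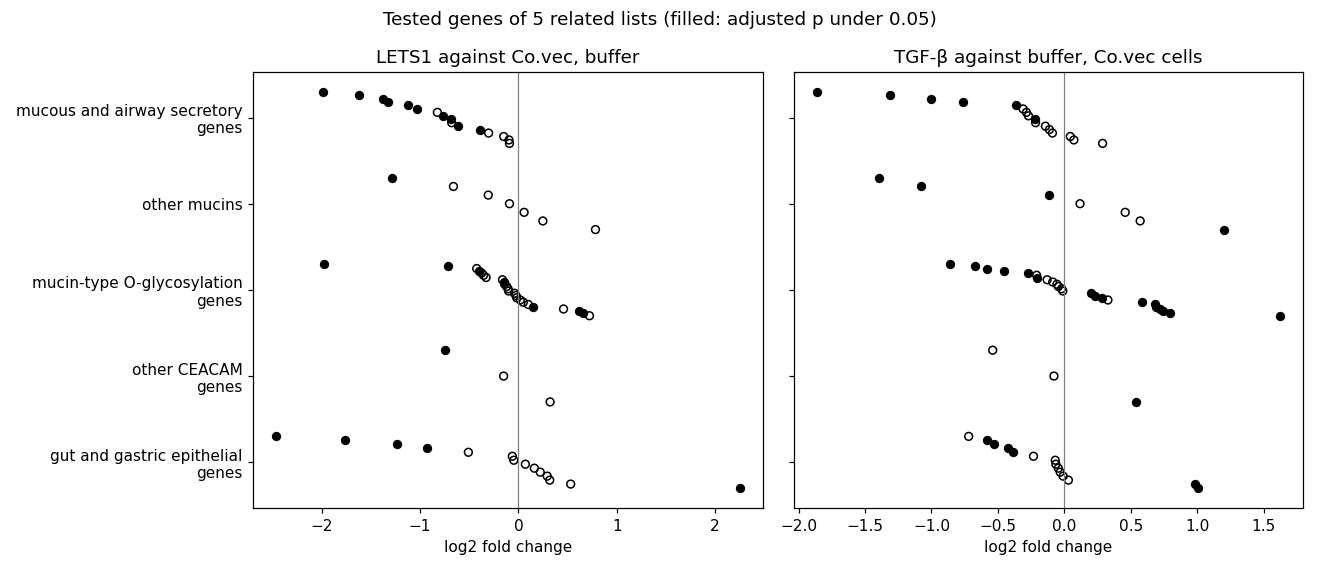
Log2 fold change (x axis) of each tested gene of 5 lists of non-members, left for LETS1 over Co.vec in buffer and right for the ligand effect in Co.vec cells; filled points have an edgeR adjusted p under 0.05. In the secretory list all 10 filled points of the left plot lie below 0, while the O-glycosylation list has filled points on both sides, 3 above and 4 below.

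The mucin-type O-glycosylation enzymes did not move one way. Of 24 tested of 31, LETS1 cells in buffer had 3 higher and 4 lower, and LETS1 cells with TGF-β had 5 higher and 7 lower, than Co.vec cells. Over all tested genes 8.57% were called higher and 6.56% lower in buffer, and 7.58% higher and 6.5% lower with TGF-β. ST6GALNAC1, which makes the sialyl-Tn antigen, had 0.717 ± 0.204 CPM in LETS1 cells in buffer and 2.85 ± 0.079 CPM in Co.vec cells in buffer (log2 fold change -1.98, edgeR adjusted p = 9.88e-09). The initiating enzyme GALNT5 was lower with LETS1 (-0.74 with TGF-β and -0.71 in buffer, edgeR adjusted p = 9e-12 in buffer), while GALNT16 (0.50 with TGF-β and 0.65 in buffer, adjusted p = 0.00375 in buffer, edgeR) and GALNT18 (0.59 with TGF-β and 0.62 in buffer, adjusted p = 9.74e-08 in buffer, edgeR) were higher. With TGF-β 8 rose and 4 fell of the 24 in LETS1 cells, and 10 rose and 6 fell in Co.vec cells. Over all tested genes 19.7% were called higher and 19.1% lower in LETS1 cells, and 21.1% higher and 18.6% lower in Co.vec cells. In LETS1 cells GALNT9 (2.83-fold) and the sialyltransferase gene ST3GAL1 (2-fold) rose and the branching enzyme gene GCNT3 (0.610 times) fell. In Co.vec cells GALNT9 (3.09-fold) and GALNT16 (1.73-fold) rose and the fucosyltransferase gene FUT2 (0.552 times) fell. The FUT2 call was lost in 8 of 17 alternatives, among them leaving out replicate 2 or 3 of Co.vec in buffer or replicate 1 or 3 of Co.vec with TGF-β, and its log2 fold change with 1 library left out was -1.13 to -0.64 (edgeR adjusted p up to 0.208).

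Of 16 other mucins 7 passed the filter. Over all tested genes 6.56% were called lower with LETS1 in buffer and 6.5% with TGF-β. With LETS1, only MUC2, the main gel-forming mucin of the intestine, was lower in buffer (-1.28, SE 0.437, edgeR adjusted p = 0.0405, with overlapping libraries at 0.310 ± 0.199 CPM in LETS1 cells and 0.761 ± 0.382 CPM in Co.vec cells), and only the sialomucin CD164 was lower with TGF-β (-0.13, edgeR adjusted p = 0.038). The MUC2 call was lost in 5 of 17 alternatives, among them leaving out replicate 1 or 3 of either cell type in buffer, and its log2 fold change with 1 library left out was -1.93 to -0.81 (edgeR adjusted p up to 0.333). The CD164 call was lost in 7 of 17, among them leaving out any LETS1 library with TGF-β or replicate 3 of Co.vec with TGF-β (edgeR adjusted p up to 0.15). With TGF-β 3 fell and 1 rose in Co.vec cells: MUC20 (-1.40), MUC2 (-1.08) and CD164 fell and MUC12 (1.20) rose. Over all tested genes 18.6% were called lower and 21.1% higher in these cells. The MUC2 call was lost in 6 of 16 alternatives, among them leaving out replicate 1 of Co.vec in buffer or any Co.vec library with TGF-β, with log2 fold changes of -1.34 to -0.61 and edgeR adjusted p up to 0.358. The MUC12 call was lost in 5 of 17, among them leaving out replicate 2 or 3 of Co.vec in buffer or replicate 1 or 2 of Co.vec with TGF-β, with log2 fold changes of 0.88 to 1.68 and edgeR adjusted p up to 0.137. In LETS1 cells MUC3A rose (0.80) and CD164 fell (-0.15), where 19.7% of all tested genes were called higher and 19.1% lower. The MUC3A call was lost in 5 of 17, among them leaving out replicate 1 or 3 of LETS1 in buffer or replicate 1 or 2 of LETS1 with TGF-β (edgeR adjusted p up to 0.0969). Apart from CD164, at 172.9 to 204.6 CPM as group means, the tested mucins of this list were at 1.17 CPM or less in every group.

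Of 10 other CEACAM genes 3 passed the filter. CEACAM1, a transmembrane adhesion receptor of the family, was lower with LETS1 in buffer, at 18.1 ± 0.331 CPM in LETS1 cells and 30.4 ± 0.748 CPM in Co.vec cells (-0.75, edgeR adjusted p = 1.63e-10), and with TGF-β (-0.64, edgeR adjusted p = 1.34e-08). CEACAM19 was lower with LETS1 in the presence of TGF-β (-0.26, edgeR adjusted p = 0.0124), and this call was lost without replicate 3 of LETS1 with TGF-β or without replicate 1 of Co.vec with TGF-β (edgeR adjusted p up to 0.146). With TGF-β it rose in both cell types (0.43 in LETS1 and 0.54 in Co.vec cells).

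Gut and gastric epithelial genes also went both ways, with 14 of 22 tested. With LETS1 1 was higher and 4 lower in buffer, and 3 were higher and 5 lower with TGF-β. Over all tested genes 8.57% were called higher and 6.56% lower in buffer, and 7.58% higher and 6.5% lower with TGF-β. KRT20, a keratin of intestinal and gastric surface epithelium, was lower with LETS1 (-2.75 with TGF-β and -2.46 in buffer). VIL1, which encodes the brush-border protein villin, was lower as well (-2.36 with TGF-β and -1.76 in buffer). Both were low: in buffer KRT20 had 0.75 ± 0.249 CPM in LETS1 and 4.16 ± 0.399 CPM in Co.vec cells. VIL1 had 2.12 ± 0.554 CPM in LETS1 and 7.2 ± 0.882 CPM in Co.vec cells in buffer. ANXA10, an annexin of gastric epithelium, had 42.2 ± 2.56 CPM in LETS1 cells in buffer and 8.86 ± 0.790 CPM in Co.vec cells in buffer (2.25, edgeR adjusted p = 1.41e-23), and its log2 fold change was 2.13 with TGF-β. The transcription factor gene HNF4A rose with TGF-β (1.22 in LETS1 and 0.98 in Co.vec cells), while VIL1 fell in LETS1 cells (-0.61, edgeR adjusted p = 0.0223, with overlapping libraries). The VIL1 call was lost without replicate 1 of LETS1 with TGF-β and without replicate 2 or 3 of LETS1 in buffer, and its log2 fold change with 1 library left out was -0.80 to -0.43 (edgeR adjusted p up to 0.174).

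Around MUC5AC and MUC5B, MUC2 was the 1 tested protein-coding neighbour outside the members called lower with LETS1, in buffer, at the level given above and by a call that depended on single libraries. TOLLIP, an adaptor of innate immune receptors whose gene starts 151.7 kb from the MUC5AC start, had a log2 fold change with LETS1 of 0.04 with TGF-β and -0.0008 in buffer. The kinase gene BRSK2 was higher with LETS1 (0.43 with TGF-β and 0.26 in buffer) and CHID1, AP2A2 and MOB2 lay between -0.12 and 0.06 in both media. MUC6 had 21 counts in all 12 libraries and was not tested. With TGF-β, BRSK2 had -0.30 in LETS1 and -0.46 in Co.vec cells, and TOLLIP had 0.17 in LETS1 and 0.13 in Co.vec cells. Around all 10 members, 60 of 94 protein-coding neighbours within 250 kb were tested, members left out. Of the 60, LETS1 went with 5 higher and 10 lower in buffer, where 8.57% of all tested genes were called higher and 6.56% lower. With TGF-β 4 were higher and 8 lower with LETS1, where 7.58% of all tested genes were called higher and 6.5% lower.

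**Figure D5:**
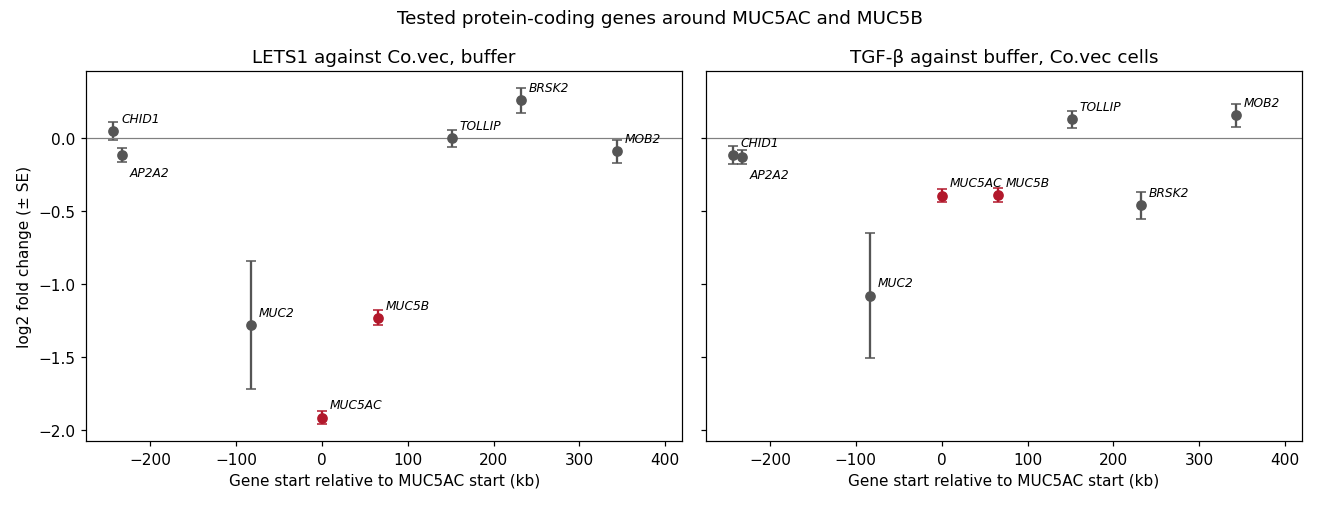
Log2 fold change (y axis, ± 1 SE) of tested protein-coding genes against the distance of their start from the MUC5AC start in kb (x axis), left for LETS1 over Co.vec in buffer, right for the ligand effect in Co.vec cells; members are red. With LETS1, MUC5AC, MUC5B and the low-count MUC2 lie at -1.92, -1.23 and -1.28, and the other genes between -0.12 and 0.26.

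The genes whose level across the 12 libraries was most like each member were ranked by Pearson's r of log2 CPM. The libraries fall into 4 groups, so r includes the differences between group means, and it is given as a description. MUC5AC was closest to AQP3 (0.996), MUC13 (0.995) and FCGBP (0.995), and MUC5B to MUC5AC (0.993), ADH6 (0.992) and RAB37 (0.988). MUC13 was closest to MUC5AC, GDA (0.994) and AQP3 (0.989), FCGBP to MGAM (0.996), SLC12A2 (0.995) and IQGAP2 (0.995), and CEACAM6 to NTS (0.996), CDH17 (0.992) and FCGBP (0.989). Members appeared among the 3 nearest genes of MUC5AC, MUC5B, MUC13, CEACAM6 and MUC1, out of all tested genes with a symbol. Because members were chosen on a difference between vectors in these same libraries, nearness among them follows largely from that choice, and nothing is read from it. AGR2 was nearest to ANXA13 (0.983), AKR1C1 (0.978) and ANKS4B (0.977). TFF1 was nearest to KRT18 (0.935), ROR2 (0.931) and CD82 (0.928). MUC16 was nearest to ATP6V0A1 (0.969), CEACAM1 (0.951) and BPIFB1 (0.951), MUC1 to MUC16 (0.913), ATP6V0A1 (0.886) and H19 (0.874), and CEACAM5 to MCTP2 (0.911), TMEM255A (0.910) and MCMBP (0.902).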

How the data were processed

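RNA of 12 A549 libraries was extracted with a column kit and sequenced on a DNBSEQ instrument, per the labels' protocols. Per the submitters' processing notes, the authors used FastQC, cutadapt 2.10, STAR 2.7.5a and HTSeq 0.12.4 with GRCh38; which annotation release and strand setting were used is not stated, so reads of a gene and its antisense partner may not be told apart. The authors deposited raw fragment counts in whole numbers, with 60676 gene rows and 5 rows for fragments given to no gene (10.1% to 10.9% matched several genes, 2.81% to 3.53% none), which were left out. Gene names were looked up by Ensembl id (60357 matched), coordinates and exonic lengths from GENCODE 29 and promoters from RefSeq.

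Genes were kept with filterByExpr and fitted with edgeR 4.0.16 (R 4.3.3): TMM scaling, robust quasi-likelihood, 1 mean per group over all 12 libraries, Benjamini-Hochberg adjustment over 16192 genes per contrast, calls at an adjusted p under 0.05. The SE was computed as the fold change (log2) divided by the root of the F statistic. The fit was tested on simulated data. Members and lists were chosen with earlier results of these data known. Named genes are all members; of each other list at most the 3 called genes with the largest change per contrast; the 3 genes most correlated with each member; and protein-coding neighbours of MUC5AC and MUC5B within 250 kb. A few genes that the rule names are not reported here, though counts and sums include them. SPDEF was followed through all contrasts, and the keratins and markers were named, after their values were seen. Same-numbered replicates showed no shared deviation (residual r -0.0573 to 0.0472, 18 pairs) and were treated as unpaired. Alternatives were RLE factors, no filter, a replicate block, DESeq2 1.42.0, the compared libraries alone and leaving out each library.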

Additional observations from a re-analysis of the deposited data

Results flagged for a closer look

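The TGF-β response of SPDEF differed between the vectors by an edgeR interaction test: the response in LETS1 cells minus that in Co.vec cells was 0.44 on the log2 scale (SE 0.093, edgeR adjusted p = 0.00787). With each library left out in turn the interaction ran from 0.40 to 0.50 and the adjusted p from 0.00362 to 0.0548 (edgeR), and it did not pass without LETS1 TGF-β library 2.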

How the results depend on the processing

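Of 50 values of the members (10 genes in 5 contrasts), recomputed 838 times under the alternatives, 800 kept direction and side of the threshold, 16 lost the call, 3 gained it and 19 changed sign, all 19 when 1 library was left out and for values not called. Over the left-out libraries these ran from -0.17 to 0.051 for the TGF-β response of MUC1 in Co.vec cells (0.051 without Co.vec TGF-β library 2) and from -0.57 to 0.10 for that of CEACAM5 in LETS1 cells (0.10 and 0.05 in the 2 cases above 0). For the interaction they ran from -0.013 to 0.10 for MUC5B, -0.036 to 0.065 for FCGBP, -0.21 to 0.46 for CEACAM5, -0.034 to 0.051 for CEACAM6 and -0.0087 to 0.094 for AGR2. The cause was not tested.

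In the LETS1 contrasts, on which the members were chosen, calls of members are a description only. Member calls numbered 9 to 10, 8 to 9, 5 to 6, 5 to 6 and 0 with 1 library left out, in the order LETS1 in buffer, LETS1 with TGF-β, TGF-β in Co.vec cells, TGF-β in LETS1 cells and interaction. With the replicate block they numbered 10, 9, 5, 5 and 0; the replicates share only a number, and the block changed no member call other than that of CEACAM6 with TGF-β in Co.vec cells. Calls among the 64 listed genes were 22 to 26, 24 to 33, 27 to 33, 19 to 24 and 0 to 2 with 1 library left out. Main-fit shares of all tested genes called higher and lower were 8.57% and 6.56% with LETS1 in buffer and 7.58% and 6.5% with TGF-β. For the ligand they were 21.1% and 18.6% in Co.vec cells and 19.7% and 19.1% in LETS1 cells, and for the interaction 0.0803% and 0.599%. The lists were written with earlier results known, so these counts are a description. Without a filter 2 listed genes passed the interaction in place of 1. For 49 named values of non-members, 789 of 831 recomputed values kept their call, 42 lost it and 0 changed sign; these alternatives were added after seeing the data. Depth limits MUC16, CEACAM5 and TFF1, which had 1 to 87 counts per library.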
